A study of Homo sapiens with 16 samples.

Results

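The zinc finger genes of 19q13.4 are a dense array of genes near the end of the long arm of human chromosome 19. Members were chosen by name and position: every gene named ZNF and a number that lies on chromosome 19 and begins past a fixed limit in GRCh38, which falls between ZNF473 and ZNF175. This gave 96 of the 60606 gene names in the count tables, out of 241 ZNF number genes on the chromosome. No measured value entered the rule, but the group was proposed with earlier results of these data in view, so the members are described by counts beside all genes tested and no p-value is given for the group. The last ZNF number gene outside the limit, ZNF473, begins at base 50025714 and had 9.28 CPM in WT cells in DMSO (mean, n = 3), and the first inside it, ZNF175, begins at base 51571283 and had 7.41 CPM.

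Most proteins of this array carry tandem C2H2 zinc fingers, which read DNA sequence, and a KRAB domain, which binds the co-repressor TRIM28. TRIM28 in turn brings in SETDB1, the enzyme that writes the repressive H3K9me3 mark, and the usual targets are transposable elements. The bodies of such genes are known for carrying H3K9me3 together with H3K36me3, the mark of transcribed gene bodies that SETD2 writes, and SETD2 is often lost in clear cell renal carcinoma.

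Polyadenylated RNA was sequenced in 16 libraries of a pair of established kidney cancer lines, and the series asks what SETD2 loss and inhibition of BCL-XL, an anti-apoptotic protein, do in such cells. The 786-O line came as SETD2 WT and SETD2 KO (labelled null) cells, each after 72 h in DMSO, the vehicle, or in 100 nM A1331852, a BCL-XL inhibitor, which makes 4 groups of 3 libraries. A498 cells came untreated, as cells labelled SETD2 deficient (null) and as add-back cells labelled SETD2 WT, with 2 libraries each. The labels do not say how many clones stand behind a genotype, nor which promoter or construct gives the add-back, so a genotype and a particular population of cells cannot be told apart. Batch 2 held replicates 1 and 2 of the DMSO groups, batch 1 the other 786-O libraries, and batch 3 the A498 libraries, so a level in A498 and one in 786-O differ in line, batch and treatment together.

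Total counts ran from 14172118 to 36037616 per library. SETD2 itself stood at 61.2 to 75.1 CPM (counts scaled to the library total) in the 6 WT libraries of 786-O and at 27.3 to 32.5 CPM in the 3 libraries of KO cells in DMSO. In KO cells in A1331852 it stood at 30.2, 50.8 and 55.8 CPM, nearer to WT in replicates 2 and 3. In A498 it stood at 39.0 and 55.5 CPM in deficient and at 48.3 and 56.7 CPM in add-back libraries, so the transcript level did not separate those labels (log2 change 0.003, adjusted p = 0.991, edgeR). The renal marker gene PAX8 was present in every library, at 129 CPM or more, while the carcinoma markers CA9 and NDUFA4L2 were near 0. A498 deficient replicate 1 held the hepatocyte genes ALB (11.4 CPM) and APOB (6.79 CPM), which stood at 0.183 CPM or lower in the other A498 libraries. The part of that RNA in the A498 results was not tested beyond refitting them without this library.

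Along the chromosome the members fell into 3 stretches, split at the widest gaps between neighbouring members. A centromere-proximal stretch held 39 genes from ZNF175 to ZNF331 (chr19:51571283-53580269), a middle stretch 16 genes from ZNF628 to ZNF835 (chr19:55476617-56671783), and a distal stretch 41 genes from ZNF264 to ZNF446 (chr19:57191500-58481230). All 96 are coding in GENCODE release 29. Read from the longest open frame, 79 of them carry a KRAB pattern, 2 a SCAN pattern, and the number of C2H2 fingers runs from 3 to 26 with a median of 12. KRAB was found in 38 of 39 proximal, 36 of 41 distal and 5 of 16 middle genes. The 53 genes on the plus and 43 on the minus strand are interleaved, and exons of 39 members overlap those of another gene name on the same strand, 12 of them those of another member. ZNF432 with ZNF841, ZNF28 with ZNF468, and ZNF808 with ZNF701 are such pairs, so their counts leave out reads from the shared stretch and the members of a pair are not fully separate measurements.

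The promoter windows of these genes are rich in CG. RefSeq gave windows from 250 bases before to 50 bases after a start for 84 of the 96 genes, 103 windows in all, on GRCh38.p14. The median number of CG steps in a window was 23.5 over those genes against 14 over all 35116 windows of the table, and the GC content 62.3% against 58.7%. Of 6 short motifs searched on either strand, CCGGAAG (reverse complement CTTCCGG), the core read by ETS factors, was in 56 of the 103 windows (54.4%) against 10.3% of all windows. It was in 30.4% of windows of ZNF number genes elsewhere on chromosome 19, in 31.2% of those on other chromosomes and in 19.3% of those of other genes in the same interval. TATAAA (reverse complement TTTATA) was in 1.94% of the members' windows against 11.5% of all. The other motifs, ACTACAA, TTTCGCGC and the named NRF1 and ZBTB33 motifs, with their reverse complements, were in 4.85%, 1.94%, 1.94% and 0% of the members' windows, against 2.77%, 0.515%, 1.24% and 0.424% of all. The motifs were chosen with results of these data known, and a match is a description of letters, not a binding site.

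The orientation of the ETS core was much the same within a stretch. Within 30 bases of a start it was found in 21 of 32 proximal genes with a window, in all 21 as CCGGAAG on the transcribed strand, and 11 of these matches began at base 5, counting the start as base 1. In the distal stretch it was found in 17 of 38 genes, in 15 as CTTCCGG and in 2 as CCGGAAG, and in the middle stretch in 5 of 14, in all 5 as CTTCCGG. Over all promoters 4.13% held it within 30 bases of the start, against 41.7% of the members' windows. The windows below run from 30 bases before a start to 30 bases from it onward, 5′ to 3′ on the transcribed strand, from 1 RefSeq start per gene, with the ETS core in capitals. The proximal genes ZNF808, ZNF83, ZNF320, ZNF813 and ZNF765 are shown because they were lower in A498 deficient cells, ZNF347 and ZNF160 because they had next to no counts in A498, and ZNF841 because it rose in 786-O KO cells. The distal genes ZNF419, ZNF549, ZNF134 and ZNF416 show the other orientation and fell in 786-O KO cells in A1331852.
ZNF808 (chr19:52527638-52527697, plus strand): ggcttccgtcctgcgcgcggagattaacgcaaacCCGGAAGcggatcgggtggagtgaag
ZNF83 (chr19:52638326-52638385, minus strand): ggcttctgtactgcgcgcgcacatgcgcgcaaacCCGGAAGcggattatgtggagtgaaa
ZNF320 (chr19:52897665-52897724, minus strand): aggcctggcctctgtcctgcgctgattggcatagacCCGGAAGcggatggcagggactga
ZNF813 (chr19:53467703-53467762, plus strand): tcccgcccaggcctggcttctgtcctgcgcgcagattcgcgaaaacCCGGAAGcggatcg
ZNF765 (chr19:53395119-53395178, plus strand): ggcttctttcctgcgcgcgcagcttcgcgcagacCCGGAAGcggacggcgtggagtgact
ZNF347 (chr19:53159024-53159083, minus strand): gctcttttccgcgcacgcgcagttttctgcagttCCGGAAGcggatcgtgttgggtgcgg
ZNF160 (chr19:53103393-53103452, minus strand): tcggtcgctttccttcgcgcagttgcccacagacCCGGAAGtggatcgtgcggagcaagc
ZNF841 (chr19:52095736-52095795, minus strand): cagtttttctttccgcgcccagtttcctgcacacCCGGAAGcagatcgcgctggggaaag
ZNF419 (chr19:57487720-57487779, plus strand): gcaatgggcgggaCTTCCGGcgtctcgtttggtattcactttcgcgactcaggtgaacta
ZNF549 (chr19:57527326-57527385, plus strand): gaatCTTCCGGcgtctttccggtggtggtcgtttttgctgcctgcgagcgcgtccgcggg
ZNF134 (chr19:57614212-57614271, plus strand): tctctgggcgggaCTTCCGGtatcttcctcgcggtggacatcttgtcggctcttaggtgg
ZNF416 (chr19:57578882-57578941, minus strand): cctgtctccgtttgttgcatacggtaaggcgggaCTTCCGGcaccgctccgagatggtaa

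The genes were expressed at low levels. The median over the 96 members was 3.93 TPM (counts per exon length, scaled to the same sum in every library), with genes near 0 included. Over the 85 members tested in 786-O it was 4.58 TPM, against 13.85 TPM over all 16260 genes tested there. Each of these medians was taken over gene means across all 6 groups, A498 included, so it is not the level in 786-O alone. The highest levels per length, by the mean over the 6 groups, were in the middle stretch, which had a median of 13.3 TPM. ZNF787 and ZNF579 averaged 41.7 and 34.2 TPM in WT cells in DMSO, and 69.7 and 88.9 TPM in A498 add-back cells. ZNF581, ZNF580, ZNF524 and ZNF865 came next by that mean, at 44.2, 42.4, 35.7 and 31.9 TPM over the groups. ZNF83, at 36.6 TPM in WT cells in DMSO and 17.6 TPM in add-back cells, was the only proximal gene among the 8 with the highest mean level, and ZNF444 completed them. At the other end, 8 members had fewer than 30 counts over all 16 libraries: ZNF534, ZNF578, ZNF677, ZNF835, ZNF154, ZNF671, ZNF418 and ZNF132. ZNF154, ZNF671 and ZNF677 are known for promoter methylation in tumours, which was not measured here.

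**Figure D1:**
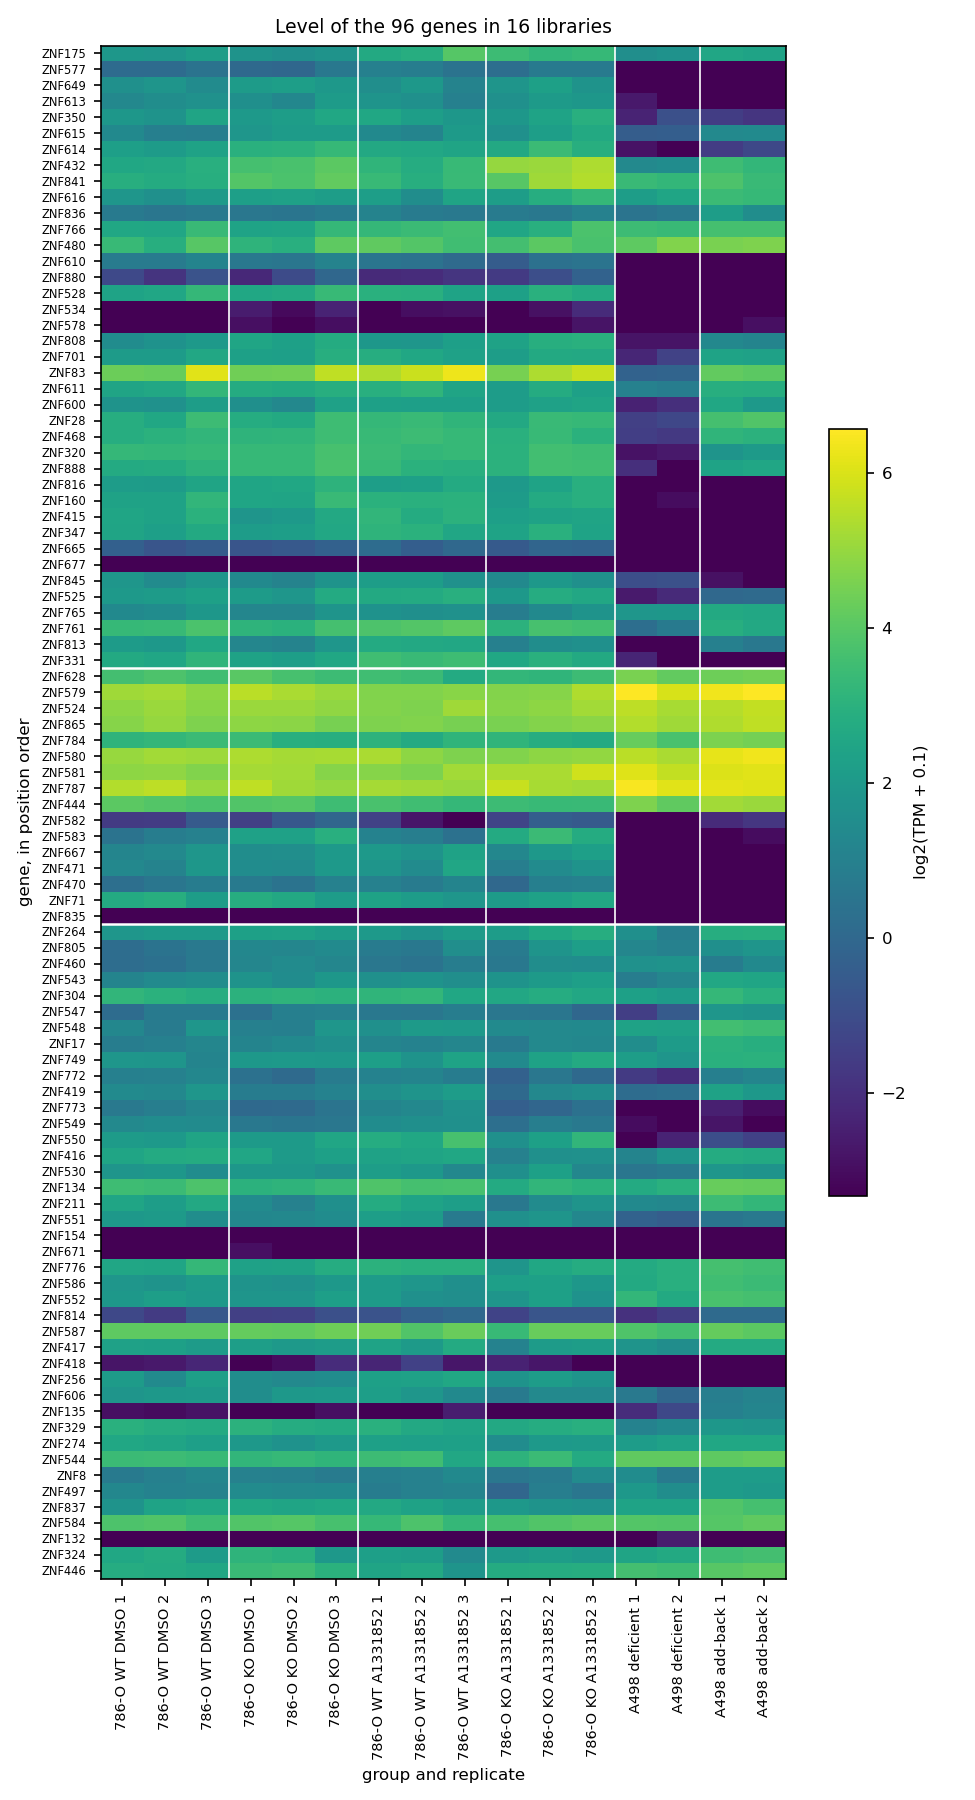
Level of each gene as log2(TPM + 0.1) (colour) in the 16 libraries (columns, by group and replicate) with the genes in position order (vertical axis) and white lines between groups and between the 3 stretches. The middle stretch holds most of the brightest rows, and blocks of proximal and middle genes that are expressed in 786-O are dark in the A498 libraries.

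The lines used different members of the array. Between 88 and 91 members had at least 1 count in a 786-O library, against 66 to 70 in an A498 library. In all, 17 members had at least 30 counts over the 3 WT DMSO libraries of 786-O and at most 3 counts over the 4 A498 libraries together. ZNF528 had 1097 counts in the 786-O group and 0 in A498, ZNF160 had 1028 and 1, ZNF347 had 1008 and 0, and ZNF71 had 804 and 0. Of the 17 genes, 16 carry KRAB. ZNF331, an imprinted gene, had 1179 counts in that 786-O group and 4 in A498. ZNF135 went the other way. It had 4 counts over the WT DMSO libraries of 786-O and 117 over the A498 add-back libraries, and per length ZNF17 stood at 1.95 TPM in WT DMSO against 7.65 TPM in add-back cells. These differences are given without a test, since line and batch cannot be told apart.

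In A498, members were lower in the SETD2 deficient than in the add-back cells. The 96 members together took 706 and 621 CPM in the deficient libraries and 1035 and 1033 CPM in the add-back libraries, so the groups did not overlap. The same held for ZNF number genes elsewhere on chromosome 19 (734 and 740 CPM against 1236 and 1165 CPM). It also held for those on other chromosomes (4281 and 4441 CPM against 4899 and 4866 CPM). Other genes of the interval summed to 7739 and 6826 CPM against 8010 and 8008 CPM. These sums are scaled to library totals alone, without the factors of the edgeR fit. In such bulk RNA, fewer cells of a kind and less RNA per cell cannot be told apart. Of 64 members with enough counts to be tested, 41 fell and 3 rose (edgeR, adjusted p under 0.05 over 15424 genes), where 15.1% of all genes tested were called lower and 15.1% higher (30.2% in all). The median log2 change was -0.79 over the members and -0.01 over all genes tested. The lowest values were in the proximal stretch, where 18 of 22 tested genes fell and the median was -1.97, against 21 of 33 and -0.78 in the distal and 2 of 9 and 0.01 in the middle stretch.

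**Figure D2:**
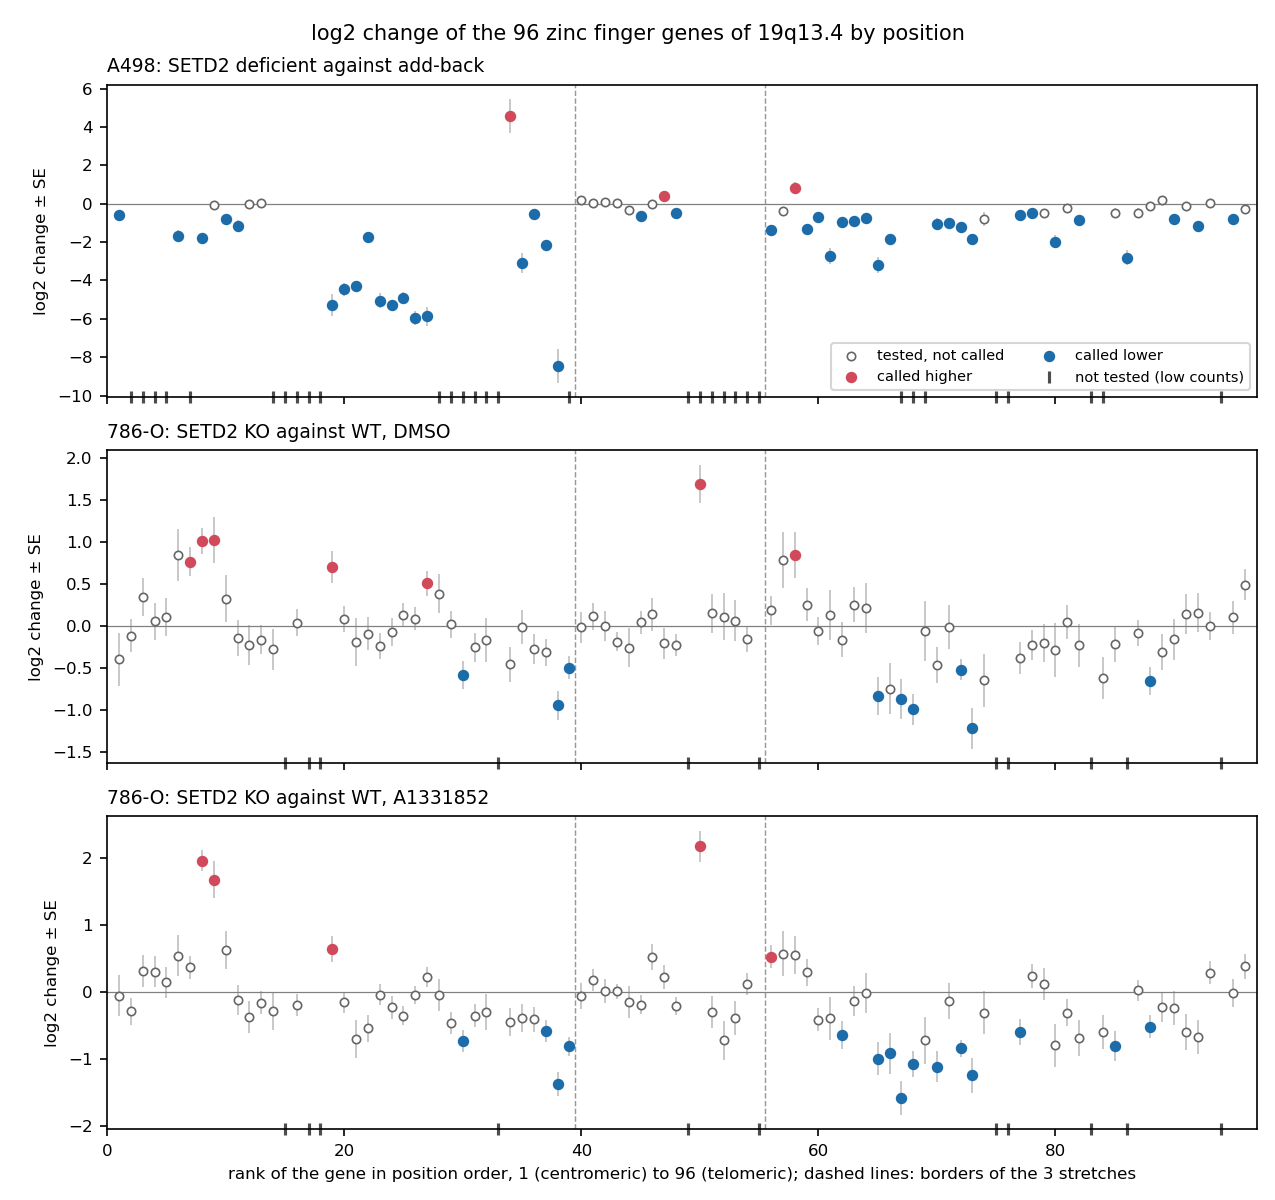
log2 change ± SE (vertical axis, edgeR) of each gene against its rank in position order (horizontal axis, 96 genes) in A498 and in 786-O in DMSO and in A1331852, with filled points for called genes and ticks for genes not tested. In A498 the lowest points are ZNF813 and 8 of the 9 genes of a proximal run, and in 786-O called genes of each direction lie next to each other in several places.

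The deepest fall covered 9 members that follow each other among the genes tested, from ZNF808 to ZNF888 (chr19:52527652-52923470), with log2 changes from -5.96 to -1.75 and a median of -5.05. ZNF320 stood at 0.122 and 0.183 CPM in the deficient and at 9.98 and 12.1 CPM in the add-back libraries, 5 counts against 383, a ratio of 72.4. ZNF888 stood at 0.183 and 0 CPM against 6.17 and 6.68 CPM, 3 counts against 223, a ratio of 70.3 with a 95% counting interval of 23.7 to 343. ZNF28 stood at 0.428 and 0.548 CPM against 19.3 and 23.2 CPM, a ratio of 43.7. No deficient library reached an add-back library in any of these genes. ZNF808, which is known for its role in pancreas development, stood at 0.0611 and 0.0609 CPM against 3.09 and 2.75 CPM, 2 counts against 101, a ratio of 47.8 (12.9 to 400). ZNF83, the most abundant gene of the run, stood at 1.59 and 1.71 CPM against 37.1 and 33.8 CPM, a log2 change of -4.26 ± 0.20 (SE, adjusted p = 5.14e-09, edgeR). ZNF600, ZNF468 and ZNF701 had ratios of 37.8, 34.3 and 24.9. ZNF611 fell least, from 13.6 and 13.2 CPM to 3.79 and 3.35 CPM, a log2 change of -1.75 ± 0.19 (adjusted p = 1.16e-05, edgeR). In the deficient libraries 8 of the 9 genes thus stood below 2 CPM, and ZNF611 alone above 3 CPM. All 9 carry KRAB, with 7 to 23 fingers, and they lie on both strands, 2 on the plus and 7 on the minus strand. All 9 calls held with each A498 library left out in turn.

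**Figure D3:**
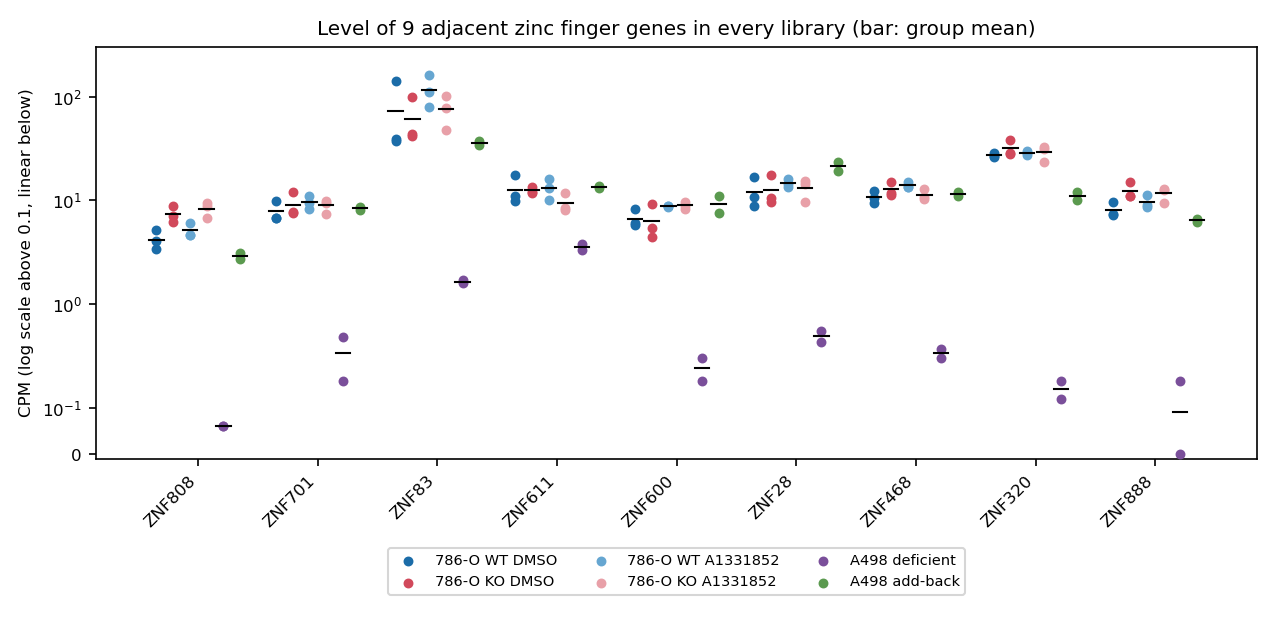
CPM (vertical axis, log scale above 0.1 and linear below) of the 9 genes of the run (horizontal axis, in position order) in every library, with points for libraries coloured by group and bars for group means. The A498 deficient points lie below all others in each of the 9 genes, and the A498 add-back points lie near or among the 786-O points in most.

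The genes just beyond this run had next to no A498 counts in either group: ZNF816, ZNF160, ZNF415 and ZNF347 had 0, 1, 0 and 0 counts over the 4 libraries. Further along, 4 more tested neighbours fell, from ZNF525 to ZNF813 (chr19:53365693-53496255). ZNF813 had 0 counts in the deficient and 94 in the add-back libraries, so it was at least 29.6-fold lower in deficient cells, against a floor of 3 counts over the group. ZNF525 stood at 0.122 and 0.244 CPM against 1.72 and 1.85 CPM, and ZNF761 at 1.65 and 2.38 CPM against 10.8 and 9.09 CPM, a log2 change of -2.14 ± 0.24 (adjusted p = 1.48e-05, edgeR). ZNF765 changed by -0.54 ± 0.16 (log2, edgeR adjusted p = 0.0173), a call lost without either add-back library (adjusted p up to 0.169). At the start of the array ZNF175, ZNF615 and ZNF432 fell too, though the call of ZNF175 was lost when either add-back library was left out. ZNF432 stood at 3.97 and 4.39 CPM against 17.7 and 14.6 CPM, a log2 change of -1.79 ± 0.19 (adjusted p = 9.67e-06, edgeR).

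In the distal stretch the fall was shallower and more even. A run of 12 tested neighbours from ZNF543 to ZNF211 (chr19:57320472-57644041) fell by log2 changes from -3.19 to -0.72, with a median of -1.11. The calls of ZNF304, ZNF17, ZNF749, ZNF416 and ZNF530 did not hold with each A498 library left out. The run was thus unbroken only with all libraries, unlike the proximal run from ZNF808 to ZNF888. ZNF772 stood at 0.367 and 0.244 CPM in the deficient and at 2.91 and 3.43 CPM in the add-back libraries, and ZNF211 at 3.06 and 2.86 CPM against 13.1 and 10.9 CPM. ZNF134, the gene of this run without a KRAB pattern, stood at 9.17 and 10.9 CPM against 26.1 and 25.3 CPM, a log2 change of -1.20 ± 0.16 (adjusted p = 8.08e-05, edgeR). In each of these 3 genes the deficient libraries lay below the add-back libraries. ZNF135, outside the run, fell from 3.15 and 3.59 CPM to 0.244 and 0.609 CPM.

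The 3 genes that rose in deficient cells were ZNF845, ZNF460 and ZNF787. ZNF845, in the proximal stretch between genes that fell or had no counts, had 25 counts in deficient and 1 in add-back cells, a ratio of 26.4 with a counting interval of 4.33 to 1085. It had too few counts to be tested when either deficient library was left out. ZNF460 (3.42 and 3.66 CPM against 1.78 and 2.64 CPM) and ZNF787 (89.6 and 70.6 CPM against 68.7 and 66.1 CPM) changed by 0.83 ± 0.28 and 0.40 ± 0.14, and each call was lost with any of 3 A498 libraries left out. Of the other abundant middle genes, ZNF579, ZNF524, ZNF865 and ZNF581 were not called. ZNF580 and ZNF444 were called lower, with log2 changes of -0.65 and -0.50 (adjusted p = 0.00379 and 0.0271, edgeR). Neither of these calls held with each A498 library left out.

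Of 50 tested members with the KRAB pattern, 37 fell and 2 rose, with a median log2 change of -0.98. Where the pattern was not found, 4 of 14 fell and 1 of 14 rose, with a median of -0.21. Most members with no match lie in the middle stretch, so pattern and position cannot be told apart. The ETS core within 30 bases of a start was in 19 of 36 members that fell and have a window (52.8%). It was in 7 of 17 that were tested and not called, and in 6 of 13 that were expressed in 786-O and had at most 3 counts in A498. The share was higher in the small remaining classes. It was in 2 of 3 that rose, in 5 of 8 with fewer than 30 counts over all libraries, and in 4 of 7 others not tested in A498. The fall was not a property of these 96 genes alone. Of 106 ZNF number genes tested elsewhere on chromosome 19, 54 fell and 1 rose (median -0.75), and of 209 on other chromosomes 39 fell and 18 rose (median -0.07). Other genes of the same interval, 86 tested, fell in 29 cases and rose in 4 (median -0.33). These include 13 genes with another name that begins with Z, 7 of which fell and 0 rose. No difference between these sets was tested. Of the 44 calls 28 held with each A498 library left out. The count ran from 31 called (without add-back replicate 1) to 43 called, the latter without deficient replicate 1, the library with ALB and APOB.

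**Figure D4:**
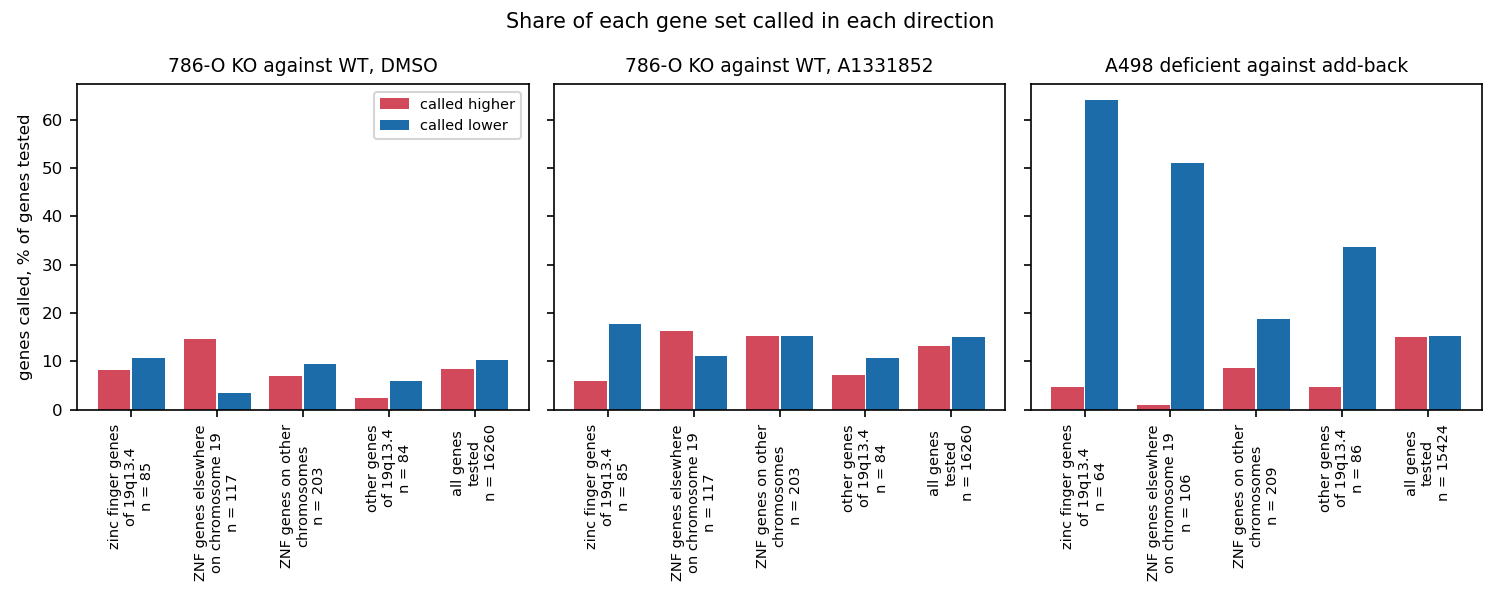
Genes called higher or lower as a percentage of the genes tested (vertical axis) in 5 gene sets (horizontal axis, with the number tested), in 786-O in DMSO, in 786-O in A1331852 and in A498. In A498 the blue bars of both chromosome 19 ZNF sets are above 50%, against 15.1% of all genes tested, while in 786-O no bar reaches 20%.

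In 786-O cells in DMSO the members changed in both directions and, without pairing, about as often as other genes. Of 85 tested, 7 rose and 9 fell in KO relative to WT cells, 18.8% called against 18.5% of all 16260 genes tested (8.29% higher and 10.2% lower, edgeR). The median log2 change was -0.07 against -0.02 over all genes. By stretch, 5 proximal genes rose and 3 fell of 35 tested, 1 middle gene rose and 0 fell of 14, and 1 distal gene rose and 6 fell of 36.

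ZNF583, a gene of the middle stretch with 12 fingers, rose most. It stood at 2.61, 3.53 and 4.08 CPM in WT and at 10.2, 10.2 and 15.5 CPM in KO cells in DMSO. These groups did not overlap, and the fitted log2 change was 1.69 ± 0.22 (edgeR, adjusted p = 3.78e-04). The same gene had 1 count over the 4 A498 libraries. Near the start of the array 3 neighbours, ZNF614, ZNF432 and ZNF841 (chr19:52012765-52095765), rose together. ZNF432 went from 8.91, 9.44 and 11.7 CPM to 19.1, 20.1 and 26.2 CPM, a log2 change of 1.01 ± 0.16 (adjusted p = 0.00106, edgeR). ZNF841 went from 7.83, 7.19 and 8.22 CPM to 16.2, 15.1 and 20.1 CPM, and ZNF614 from 6.66, 5.98 and 7.43 CPM to 10.9, 11.8 and 14.2 CPM. In each of the 3 genes all KO libraries were above all WT libraries. ZNF808, ZNF888 and ZNF460 also rose, with log2 changes of 0.71, 0.51 and 0.84.

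Genes that fell lay mostly in the distal stretch. ZNF211 went from 6.33, 5.21 and 7.43 CPM in WT to 3.04, 2.29 and 3.47 CPM in KO cells, with a fitted change of -1.22 ± 0.24 on the log2 scale (edgeR, adjusted p = 0.0051). ZNF549 went from 5.74, 6.45 and 6.38 CPM to 3.43, 3.23 and 3.42 CPM, a change of -0.99 ± 0.18 (adjusted p = 0.00315, edgeR). Neither gene's groups overlapped. ZNF773, ZNF772 and ZNF134 changed by -0.87, -0.83 and -0.52. In the proximal stretch ZNF813 went from 6.63, 5.92 and 9.54 CPM to 3.52, 3.26 and 5.82 CPM, a change of -0.94 ± 0.17 (adjusted p = 0.00309, edgeR). The groups did not overlap, but WT replicate 2 and KO replicate 3, of different batches, lay close together. ZNF415 and ZNF331 changed by -0.58 and -0.50. ZNF274, a KRAB protein with 5 fingers that is known for binding the ends of other zinc finger genes and bringing in SETDB1, went from 12.2, 11.3 and 10.2 CPM to 8.01, 6.82 and 8.33 CPM, a change of -0.65 ± 0.16 (adjusted p = 0.0159, edgeR).

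**Figure D5:**
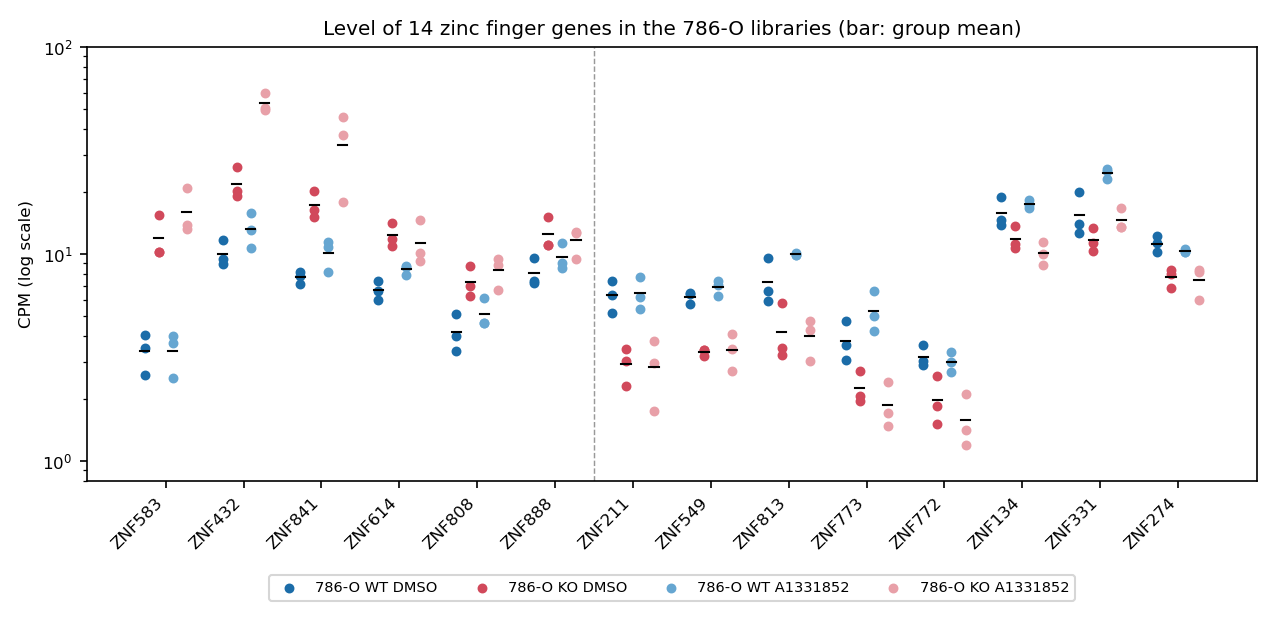
CPM (vertical axis, log scale) of 14 genes called between KO and WT cells of 786-O (horizontal axis) in the 12 libraries of that line, with points for libraries coloured by group and bars for group means. Left of the dashed line KO points are higher than WT points, right of it lower, and ZNF432 and ZNF841 reach their highest levels in KO cells in A1331852.

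Within batch 2 alone and in the single pair of batch 1, ZNF583 had a log2 change of 1.67 and 1.93. ZNF432 had 1.01 and 1.17, and ZNF211 had -1.20 and -1.10. All 16 called members kept their direction in each batch. They were called from these same libraries, so this agreement was largely fixed in advance and is no separate support. Only 5 calls, those of ZNF432, ZNF813, ZNF583, ZNF549 and ZNF211, held with each DMSO library left out, and 5 to 7 members were called then.

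Under A1331852 members again changed in both directions. Of 85 members, 5 rose and 15 fell against WT cells in A1331852, 23.5% called against 28.2% of all genes tested (13.2% higher and 15.0% lower, edgeR), with a median of -0.22 against -0.01. With same-numbered libraries of KO and WT as pairs, 33 members were called, 8 higher and 25 lower, when 38.6% of all genes were called. In the distal stretch 11 of 36 tested genes fell and 1 rose. Across the 2 comparisons of KO with WT, 13 members were called in the same direction in each, with 0 in opposite directions. The comparisons share no library, but they share the KO and WT cells and the same fit, so they are not independent. The matching share of all genes was not counted, so the 13 are no result about the members.

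ZNF583 stood at 4.00, 3.73 and 2.51 CPM in WT and at 13.8, 20.9 and 13.2 CPM in KO cells in A1331852, and the fitted change was 2.17 ± 0.23 (log2, edgeR adjusted p = 5.16e-05). ZNF432 stood at 13.1, 10.7 and 15.8 CPM against 50.6, 49.9 and 59.8 CPM, a change of 1.96 ± 0.16 (adjusted p = 1.01e-05, edgeR), so that its KO level in A1331852 was above every other 786-O library. ZNF841, which shares exons with ZNF432, stood at 10.8, 8.15 and 11.4 CPM against 17.8, 37.5 and 45.7 CPM, with KO replicate 1 well under the others. ZNF808 and ZNF264 rose by 0.64 and 0.53.

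Runs of neighbours fell in these cells at 2 places. The distal one held ZNF772, ZNF419, ZNF773 and ZNF549 (chr19:57466663-57557542). ZNF773 stood at 4.24, 5.01 and 6.63 CPM in WT and at 1.47, 1.71 and 2.40 CPM in KO cells, the largest fall, with a change of -1.58 ± 0.25 (adjusted p = 8.51e-04, edgeR). The proximal one held ZNF761, ZNF813 and the imprinted gene ZNF331. ZNF813 stood at 10.1, 9.89 and 9.92 CPM against 3.06, 4.31 and 4.73 CPM, a change of -1.36 ± 0.18 (adjusted p = 2.38e-04, edgeR), and ZNF331 at 22.9 to 25.6 CPM against 13.48 to 16.6 CPM. None of these genes' groups overlapped. ZNF211 and ZNF416, both distal, changed by -1.24 and -1.11, and ZNF274 by -0.51. Of the 20 calls 12 held with each A1331852 library left out. ZNF419 of the distal run and ZNF761 of the proximal run were not among these 12 (adjusted p up to 0.112 and 0.0738, edgeR). KO replicate 1 had the lowest summed level of the members among the 6 A1331852 libraries, 759 CPM against 907 to 1006 CPM in the other 5, and without it 6 members rose and 9 fell. The number that rose was 3 without KO replicate 2 or KO replicate 3 and 10 without WT replicate 3.

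Few members were called between A1331852 and DMSO. Replicate 3 was the only DMSO library of each genotype in the treated libraries' batch, so these comparisons lean on it. In WT cells 0 of 85 were called between A1331852 and DMSO by edgeR, and 0 by DESeq2, with 4 at an unadjusted p under 0.05, where edgeR called 0.141% of all genes (0.0369% higher and 0.105% lower). In KO cells 2 rose and 2 fell of 85, 4.71% called against 13.5% of all genes (6.46% higher and 7.08% lower). ZNF175, a gene known for limiting HIV transcription, rose by 1.52 ± 0.40 (adjusted p = 0.0292, edgeR), from 6.17, 5.52 and 6.41 CPM in DMSO to 21.5, 16.4 and 18.1 CPM. In WT cells it stood at 6.94, 6.69 and 8.62 CPM in DMSO and at 11.8, 13.6 and 30.1 CPM in A1331852, a change of 1.17 ± 0.39 that was not called (adjusted p = 0.241, edgeR). The other calls in KO cells were ZNF432 (1.09), ZNF528 (-0.70) and ZNF160 (-0.74). None of the 4 calls held with each library left out. The count was 2 without KO A1331852 replicate 1 or KO DMSO replicate 1, 1 without KO DMSO replicate 2, and 0 without KO DMSO replicate 3, the only KO DMSO library of the treated libraries' batch. The difference between the KO and WT responses was called for 0 members by edgeR, with 3 at an unadjusted p under 0.05 and 0.295% of all genes called (0.203% higher and 0.0923% lower), and for 1 by DESeq2. That gene was ZNF432, with a difference of 0.95 ± 0.22 (adjusted p = 0.101, edgeR, or 0.0215 with paired libraries).

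The same 4 members fell in all 3 comparisons of SETD2 KO or deficient cells, in 786-O in DMSO, in 786-O in A1331852 and in A498: ZNF813, ZNF772, ZNF134 and ZNF211. With same-numbered libraries as pairs ZNF419 fell in DMSO too (-0.74 ± 0.18, adjusted p = 0.0132, edgeR), which makes 5. The share of all genes that fell in all 3 comparisons was not counted. As 41 of 64 tested members fell in A498, and the 786-O comparisons share their cells, some overlap is to be expected. Others went opposite ways in the lines. ZNF432, ZNF808 and ZNF888 rose in 786-O KO cells in DMSO and fell in A498 deficient cells, and ZNF264 rose in KO cells in A1331852 and fell in A498. Of these 786-O calls only that of ZNF432 held with each library left out. Those of ZNF808 and ZNF888 were lost without any of the 6 DMSO libraries, and that of ZNF264 without any of 4 A1331852 libraries (adjusted p up to 0.14, edgeR). ZNF460 rose in KO cells in DMSO and in A498 deficient cells, but neither call held with each library left out.

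The difference between the lines was tested as 1 contrast, the KO change in DMSO minus the A498 change. Of 87 members tested 25 were called, 24 with a higher value in 786-O and 1 with a lower one, 28.7% against 13.2% of all 17868 genes tested (6.12% higher and 7.1% lower, edgeR). Among ZNF number genes elsewhere on chromosome 19, 42 of 122 were called, 41 of them higher. All 9 genes of the run from ZNF808 to ZNF888 were among the 24, with differences from 1.63 to 6.37. So were ZNF615, ZNF614 and ZNF432 at the start of the array, and ZNF432 had a difference of 2.77 ± 0.26 (adjusted p = 5.00e-06, edgeR). ZNF134, lower in KO or deficient cells of each line, differed by 0.65 ± 0.20 (adjusted p = 0.0456, edgeR), a call lost with any of the 10 libraries left out. ZNF845 was the single gene with a lower value in 786-O, at -5.09 ± 0.76 (adjusted p = 4.65e-04, edgeR). Of the 25 calls 20 held with each library left out.

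Few of the genes that act with KRAB zinc finger proteins were called. Of 16 cofactor genes, 0 were called in 786-O in DMSO by edgeR (5 at an unadjusted p under 0.05), 1 rose and 1 fell under A1331852 between KO and WT, and 1 rose and 0 fell in A498. These are 0%, 12.5% and 6.25% of the list, against 18.5%, 28.2% and 30.2% of all genes tested. TRIM28, the co-repressor itself, was not called in any comparison and stood at 847 and 772 CPM in A498 deficient and at 777 and 821 CPM in add-back cells. SETDB1 stood at 37.1 and 42.2 CPM against 41.3 and 41.4 CPM there and was likewise not called. CHD3, a subunit of the NuRD remodeller, changed by 0.42 ± 0.12 in A498 (adjusted p = 0.0166, edgeR) and by -0.57 ± 0.12 in KO cells in A1331852 (adjusted p = 0.00485, edgeR), and SUV39H1, another H3K9 methyltransferase, rose there by 0.55. Between A1331852 and DMSO in KO cells the same genes were called, CHD3 with a change of -0.57 (adjusted p = 0.0262) and SUV39H1 with 0.65 (adjusted p = 0.0236, edgeR).

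Of 16 genes for the chromatin of zinc finger gene bodies, SETD2 included, 2 were called in 786-O in DMSO, 5 in A1331852 and 4 in A498. These shares of 12.5%, 31.2% and 25.0% lie near or under those of all genes tested, 18.5%, 28.2% and 30.2%, so the genes that follow are given for their own values. DAXX, a histone H3.3 chaperone, rose by 0.49 ± 0.11 and 0.61 ± 0.11 in the 786-O comparisons (adjusted p = 0.00755 and 0.00165, edgeR). In A498, DNMT3B and DNMT1, which methylate DNA de novo and at replication, rose by 0.72 ± 0.14 and 0.49 ± 0.12, while DNMT3A, a de novo enzyme, and KDM4B, an H3K9 demethylase, changed by -0.62 ± 0.15 and -0.59 ± 0.14 (adjusted p = 0.00135, 0.00643, 0.00551 and 0.00607, edgeR). DNMT3B also rose in KO cells in A1331852, by 0.83 ± 0.26 (adjusted p = 0.0336, edgeR). In the same comparison ASH1L, SETD2 and KDM4B changed by -0.70 ± 0.16, -0.65 ± 0.18 and -0.41 ± 0.13 (adjusted p = 0.0067, 0.0168 and 0.0323, edgeR). The part of these changes in the levels of the zinc finger genes was not tested.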

How the data were processed

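The authors deposited counts, 1 table per library. Per the file headers, fragments were counted with featureCounts v1.5.0-p3 over exons by gene name on GENCODE release 41, for read pairs with strand setting 2. The alignments counted are named as primary and unique in the headers, so counts of genes with near-identical copies, as in this array, are uncertain. STAR, hg38, MultiQC 1.7 and DESeq2 are named in the submitters' processing notes, with no further settings. Poly(A) RNA was read as 150-base pairs, per the labels' protocols.

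CPM were computed as counts over the library total, and TPM from the exon lengths in the tables, used wherever genes were compared. Depth was 14172118 to 36037616 counts per library. The 95% exact binomial intervals of ratios, and floors of 3 counts per group, cover counting error only. The labels do not say whether replicates are separate cultures, and the p-values rest on the spread between libraries, which may be technical.

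Tests used edgeR 4.0.16 in R 4.3.3: TMM factors, the edgeR filter by group (minimum count 10) and the quasi-likelihood F test. P-values were adjusted by Benjamini-Hochberg over every gene in the fit, and a gene was called at an adjusted p under 0.05. A fit took the 12 libraries of 786-O with a batch term, another the 4 of A498, and another all 16 for the difference between lines. The scripts were tested on simulated data. DESeq2 1.42.0, upper-quartile factors, other filters, replicate blocks, single batches and leaving out each library were alternatives.

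Same-numbered KO and WT libraries deviated together within a treatment (residual correlations of 0.626, 0.569 and 0.765 in DMSO and 0.271, 0.28 and 0.506 in A1331852). The main fits were unpaired, and numbers were taken as pairs within a treatment in an alternative fit. Batch was not removed from these residuals. In DMSO unlike numbers 1 and 2, both of batch 2, correlated at 0.566 and 0.601, so pairing and batch cannot be told apart there. In A1331852, all of batch 1, unlike numbers 1 and 2 correlated at 0.222 and 0.13, near the 0.271 and 0.28 of like numbers. Number 3 with unlike numbers gave -0.404 to -0.292, so there too mainly number 3 stood apart, and pairing of numbers 1 and 2 is not established. Between treatments (-0.0465 to 0.0542) and with only 2 pairs in A498 (0.152) numbers were not taken as pairs.

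Genes named are the 8 highest by TPM, the largest called rises and falls per comparison (at least 1 CPM), genes called alike or oppositely across comparisons, genes near 0 in 1 group, the largest level ratios between lines, runs of 3 or more called neighbours, the genes at the position limit, SETD2, TRIM28, SETDB1 and ZNF274, and the called genes of the cofactor and gene-body lists with the smallest p. Members, lists, motifs and this rule were chosen with earlier results of these data known. KRAB, SCAN and finger patterns were counted in the longest open frame of GENCODE release 29 transcripts. A gene with no match may still hold a divergent form of the domain. Promoter windows are RefSeq's, GRCh38.p14.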

Additional observations from a re-analysis of the deposited data

Results flagged for a closer look

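The change in 786-O (KO minus WT in DMSO) minus the change in A498 (deficient minus add-back) passed the test of that difference (edgeR, adjusted p under 0.05) for 25 members. Differences are on the log2 scale. In the proximal stretch they were 2.502 for ZNF615, 4.18 for ZNF614, 2.77 for ZNF432, 5.98 for ZNF808, 4.52 for ZNF701, 4.05 for ZNF83, 1.63 for ZNF611, 4.79 for ZNF600, 5.18 for ZNF28, 5.03 for ZNF468, 6.03 for ZNF320, 6.37 for ZNF888, 3.05 for ZNF525, 1.80 for ZNF761 and 7.81 for ZNF813. ZNF845 alone was negative, at -5.09. In the middle stretch ZNF580 differed by 0.66. In the distal stretch the values were 1.54 for ZNF264, 1.56 for ZNF543, 2.85 for ZNF547, 1.13 for ZNF17, 2.34 for ZNF772, 0.65 for ZNF134, 1.68 for ZNF814 and 1.27 for ZNF837. ZNF813 had 0 counts and ZNF614 1 count in A498 deficient cells, and ZNF845 had 1 count in add-back cells, so the fitted values of these 3 genes depend on the prior count and are no bound. For ZNF614 the A498 ratio of add-back to deficient was 14.2, with a counting interval of 2.18 to 597. Line, batch and treatment cannot be told apart in these values.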

How the results depend on the processing

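No named called change turned its direction under any alternative run: of 1252 values, 1038 kept their call and 214 lost it. With 1 library left out, called members ran from 5 to 7 (16 with all libraries) for KO against WT in DMSO, 15 to 24 (20) in A1331852, 0 to 6 (4) for the drug in KO cells, 0 to 0 (0) in WT cells, 0 to 1 (0) for the difference of responses, 31 to 43 (44) in A498 and 20 to 22 (25) for the difference between lines. Where 1 library per arm was left, it was assumed to vary like the other groups. KO against WT in DMSO gave 34 called members in batch 2 alone and 8 without a batch term, and in A1331852 10 in batch 1 alone and 12 without a batch term. The drug in KO cells gave 7 with DESeq2 and 0 in batch 1 alone, and in WT cells 1 with no low-count filter. The difference of responses gave 1 with DESeq2 and 1 with no low-count filter. The share of all genes called was not counted in these runs, so these counts are no result about the members. The cause of these moves was not tested.

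With a replicate block, KO against WT in A1331852 gave 34 called members (33 with pairs within treatments). The drug gave 7 in WT cells and 12 in KO cells, and the difference of responses 1 (1 within treatments). The share of all genes was counted only for KO against WT with pairs within treatments (38.6% in A1331852). Under pairs within treatments every call without the block was kept, and 5 members were gained in DMSO (21 of 85 called, where the same fit called 28.6% of all genes) and 13 in A1331852. In A498 the block gave 45, where numbers are only shared. Members at about 1 CPM rest on 14 to 36 counts per library, which limits calls among them.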
